A study of Homo sapiens with 12 samples.

Results

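A set of 54 transcription factor genes that Polycomb is known to hold silent in embryonic stem cells was followed across 12 RNA-seq libraries of H9 cells, an established human embryonic stem cell line. The members were taken by symbol from a table of 53712 named genes, and all 54 had a row. They are 14 HOX genes, 5 paired box (PAX) genes, 6 LIM homeobox genes, 6 heart and mesoderm regulators, 4 forkhead genes, 7 neural and pancreatic regulators, 9 limb, craniofacial and neural crest regulators, and SOX18, SOX21 and WT1. Of these, 15 reached 10 counts in at least 4 libraries and were tested, and 39 did not. No protein, chromatin mark or Polycomb binding was measured, so membership rests on what is known of these genes and not on these data.

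The cells were kept in RSeT medium and transfected without later sorting. One group received ASO-Ctr, control antisense oligos with no intended target. A second received SO-L1, oligos in the sense orientation of LINE1 (L1), a family of mobile elements. The third received ASO-L1, oligos antisense to L1 RNA. Each oligo was used at 25 nM, and each group has 4 libraries with the numbers 1 to 4. All groups, controls included, then grew with 10 nM DZNep and 5 nM TSA until harvest at 48 hours. DZNep inhibits S-adenosylhomocysteine hydrolase and so lowers histone methylation, and TSA inhibits histone deacetylases. Every group also had 3 survival additives, Y-27632 against ROCK, emricasan against caspases and trans-ISRIB against the integrated stress response, which were taken out at 24 hours. The effect of these drugs on the members cannot be told apart from the baseline, because no group went without them. The study's stated question concerns L1 and 8-cell stage genes in naive cells, which the members are not. L1 RNA was not analysed here, so the knockdown was not checked.

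Polycomb repressive complex PRC2 places a methyl mark on histone H3, with EZH2 as its catalytic subunit and EED and SUZ12 as its core partners. PRC1, a second complex, binds that mark through CBX proteins and adds ubiquitin to histone H2A. In embryonic stem cells the targets are largely CpG-rich promoters of genes that direct later lineages, such as the HOX clusters. These genes stay silent or nearly so until their lineage forms.

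The library totals lay between 20367989 and 32180891 counts. The labelled cell type was checked on 12 markers of embryonic stem cells, all of which were detected at testable levels, and POU5F1 stood at 1088 ± 49.4 CPM in ASO-Ctr (CPM, counts scaled to library size; SD, n = 4). Nothing states that the 4 libraries of a group came from separate cultures, so p-values measure only the spread between these libraries. The libraries also separated by number: with group means removed, numbers 1 and 2 stood apart from numbers 3 and 4. What a number stands for is not given. Because RNA was taken from whole cultures, a change in the number of cells that express a gene and a change in RNA per cell cannot be told apart.

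Promoter sequences from RefSeq (GRCh38.p14) were found for 35 of the 54 members; the counts were made on hg19, so only names were matched. The 250 bases before the start of 5 members are shown with every CG in capitals, read from 5′ to 3′ on the gene's strand. SIX2 and MSX2 were higher with ASO-L1 and SOX21 was lower, HOXB1 was transcribed in all libraries, and HOXA13 had 1 count in all.
SIX2, chr2:45009453-45009702, minus strand: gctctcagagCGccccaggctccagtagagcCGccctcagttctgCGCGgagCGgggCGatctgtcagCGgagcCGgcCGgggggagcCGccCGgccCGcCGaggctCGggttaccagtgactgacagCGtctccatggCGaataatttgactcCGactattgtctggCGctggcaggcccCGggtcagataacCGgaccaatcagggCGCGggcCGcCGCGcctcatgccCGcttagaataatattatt
MSX2, chr5:174724332-174724581, plus strand: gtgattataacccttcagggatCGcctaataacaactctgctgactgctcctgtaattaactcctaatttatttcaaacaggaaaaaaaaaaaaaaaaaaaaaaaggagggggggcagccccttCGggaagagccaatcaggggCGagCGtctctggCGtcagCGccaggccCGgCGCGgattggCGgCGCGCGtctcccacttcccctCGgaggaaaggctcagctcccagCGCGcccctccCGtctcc
SOX21, chr13:94712546-94712795, minus strand: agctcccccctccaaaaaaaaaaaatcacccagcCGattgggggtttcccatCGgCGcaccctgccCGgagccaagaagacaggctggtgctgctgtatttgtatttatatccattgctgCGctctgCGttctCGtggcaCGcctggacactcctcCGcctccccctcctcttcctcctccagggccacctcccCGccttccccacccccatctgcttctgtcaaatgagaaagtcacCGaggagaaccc
HOXB1, chr17:48531012-48531261, minus strand: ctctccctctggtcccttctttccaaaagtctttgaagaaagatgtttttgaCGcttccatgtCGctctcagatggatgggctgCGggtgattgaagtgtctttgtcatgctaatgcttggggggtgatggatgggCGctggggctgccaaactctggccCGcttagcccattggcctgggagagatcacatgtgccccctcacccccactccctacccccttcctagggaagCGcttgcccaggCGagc
HOXA13, chr7:27200092-27200341, minus strand: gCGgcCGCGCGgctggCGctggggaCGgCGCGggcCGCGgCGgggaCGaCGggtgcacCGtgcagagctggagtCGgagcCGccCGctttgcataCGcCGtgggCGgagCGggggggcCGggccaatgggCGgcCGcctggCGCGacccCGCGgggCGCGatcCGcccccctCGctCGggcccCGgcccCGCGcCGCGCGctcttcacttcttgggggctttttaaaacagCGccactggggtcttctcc

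The near-silent HOXA13 had 40 CG in its 250 bases and SIX2 had 26, while MSX2 had 17, SOX21 had 11 and HOXB1 had 7. Over the 35 members the median was 21, with a range from 7 to 45. The letters CG read the same on both strands, and the median over all 35116 promoters of the RefSeq table was 11. A threshold of 10 CG was reached by 33 of the 35 members (94.3%) and by 52.2% of all promoters. The 27 untested members had a median of 21 and the 8 tested ones 19.5. These counts describe the letters of the window and no mark on it. The 19 members not matched were HOXA5, HOXB2, HOXB4, HOXB9, HOXC8, HOXD9, LHX1, LHX5, NKX2-5, TBX2, GATA4, FOXC2, FOXF1, OLIG2, IRX3, DLX5, TWIST1, ALX1 and SOX18.

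Most members were close to silent in every group. HOXC8 had 0 counts in all 12 libraries, which allows up to 0.0272 CPM in ASO-L1, 0.0311 in SO-L1 and 0.0303 in ASO-Ctr at 3 counts per group; these floors cover counting error only. A total of 9 members had 3 or fewer counts in all libraries together: the HOX genes HOXC8, HOXA5, HOXC4, HOXA13, HOXD3, HOXA2, HOXB4 and HOXA9, and HAND2, a regulator of heart and limb. In all, 20 members had 12 or fewer counts over the 12 libraries. None of 34 members reached 10 counts in any library, and 5 members did so in 1 to 3 libraries: DLX5, FOXC1, LHX1, PAX9 and MSX1. The 39 untested members together made 716 of the 21223 counts of the set (3.37%), and SOX21 alone made 54.3%. Of all 53712 named genes, 17484 passed the same filter, so most genes of the table were untested too. The number of untested members is therefore a description and not a trait of the set.

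By family, 12 of the 14 HOX genes were untested, as were 3 of 5 PAX genes (PAX2, PAX7, PAX9) and 5 of 6 LIM homeobox genes (LHX1, LHX2, LHX5, LHX9, LMX1B). All 4 forkhead genes (FOXA1, FOXC1, FOXC2, FOXF1) were untested. Of the heart and mesoderm regulators, GATA4 was tested and TBX1, TBX2, TBX5, NKX2-5 and HAND2 were not. NKX2-2, NEUROG1, EN2 and EMX2 of the neural and pancreatic group were untested. So were MSX1, DLX5, DLX6, PITX1 and MEIS1 of the limb, craniofacial and crest group, and WT1, a regulator of kidney and gonad. Among the 25 HOX genes outside the set, HOXB3 alone was tested, and HOXA4, HOXA6, HOXB5, HOXC6 and HOXD4 had 0 counts in every library.

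**Figure D1:**
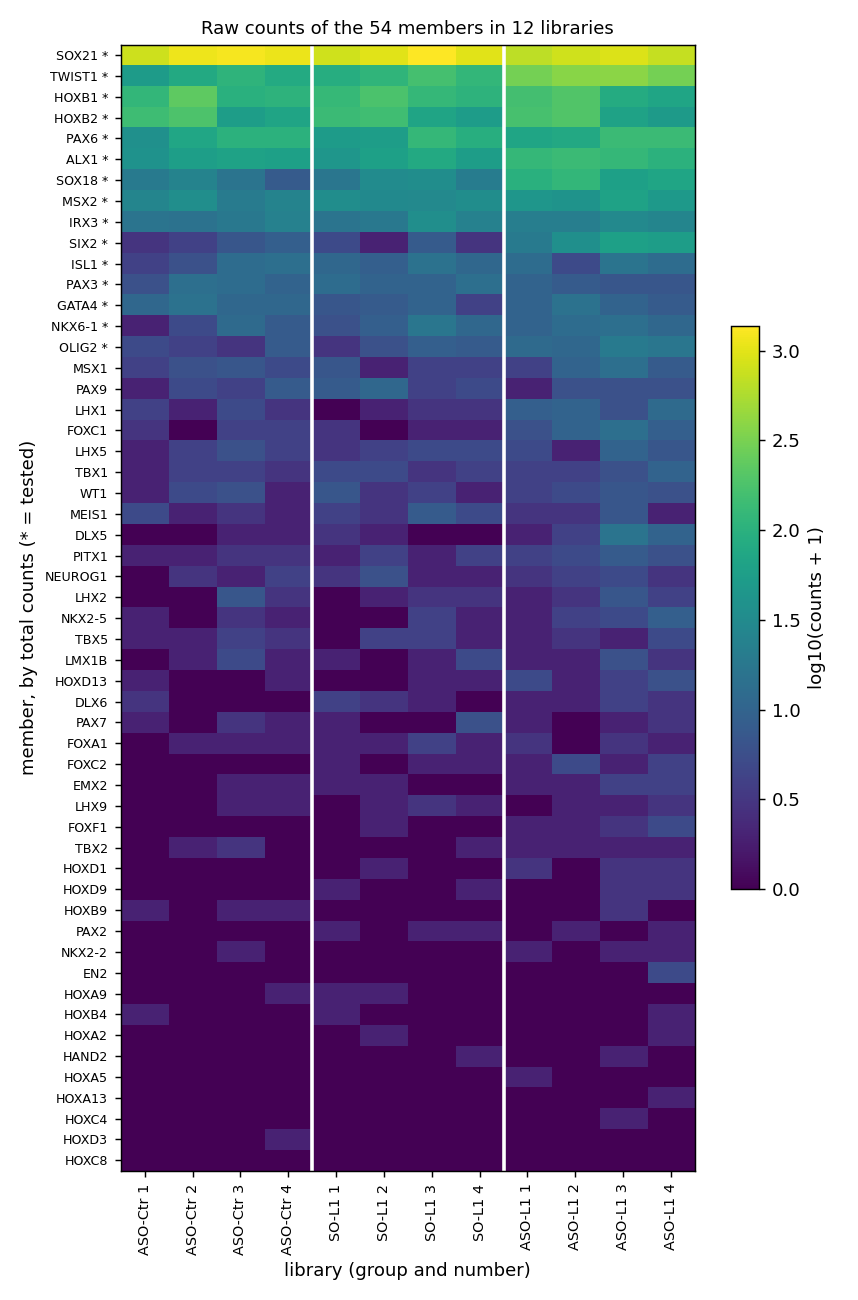
Raw counts of the 54 members (rows, ordered by total, asterisk for the 15 tested) in the 12 libraries (columns), coloured by log10(counts + 1). HOXC8 is at 0 in all 12 libraries, and the 39 untested members are at the low end of the scale in each group.

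The untested members summed to 377 counts in ASO-L1, against 184 for SO-L1 and 155 for ASO-Ctr. By library and number, this was 1.23, 0.955, 2.34 and 1.78 CPM in ASO-Ctr, 2.32, 1.96, 1.52 and 1.99 in SO-L1 and 2.16, 2.23, 4.51 and 4.97 in ASO-L1. The ASO-L1 libraries of numbers 3 and 4 stood above all others, while those of numbers 1 and 2 lay within the range of the remaining groups. Of the 39 members, 25 had their highest group mean CPM in ASO-L1. The share over other low-count genes was not taken, so this count is a description. HOXA5, HOXA13 and HOXC4 are among the 25 on 1 count each. Counts of single members were small: LHX1, a LIM homeobox gene of early mesoderm and kidney, had 33 counts with ASO-L1, 5 with SO-L1 and 10 with ASO-Ctr. The forkhead gene FOXC1, a regulator of eye, vessel and skeletal development, had 35, 4 and 8 counts in the same order. DLX5, a homeobox gene of bone and branchial arch development, had 28, 3 and 2 counts, of which 15 were in ASO-L1 3. At the other end, PAX9, a gene of pharynx and tooth development, had 16, 24 and 15 counts, and MEIS1, a HOX cofactor, had 11, 16 and 8.

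With no filter on low counts, FOXC1, DLX5 and FOXC2 passed against ASO-Ctr (edgeR adjusted p = 0.0353, 0.0220 and 0.0474), and 5.02% of 34852 genes were called higher in that fit. FOXC2 rested on 9 counts with ASO-L1 and 0 with ASO-Ctr. Against SO-L1, LHX1, FOXC1 and DLX5 passed (adjusted p = 0.00959, 0.00629 and 0.0475), where 4.42% of genes did. For SO-L1 against ASO-Ctr none of the untested members was higher without the filter, and 0.00287% of all genes were. These shares cover all genes with a count, including those that passed the filter. The share among genes that failed the filter was not taken, so it cannot be set beside these members. In the authors' deposited table of ASO-L1 against SO-L1, which holds 30 of the members, LHX1, FOXC1 and DLX5 had log2 fold changes of 2.19, 2.65 and 2.58. That authors' deposited table lists 7 members as higher and 1 as lower at an adjusted p under 0.05. The other higher ones are TWIST1, ALX1, SIX2 and SOX18, and SOX21 is the lower one. The share called over all its 21414 genes was not taken. It comes from the same study, so it is not independent of the counts used here.

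The tested members covered a wide range of levels. Levels were compared per kilobase of the longest coding transcript in GENCODE, as group means ± SD (n = 4). In ASO-Ctr, SOX21 was highest at 15.4 ± 1.80 CPM per kilobase, followed by HOXB2 (2.92 ± 1.59), HOXB1 (2.68 ± 0.857), TWIST1 (1.95 ± 0.487) and ALX1 (1.53 ± 0.239), of which neighbours in the order did not differ beyond their spread. The SDs of HOXB2 and HOXB1 include a split between numbers 1 and 2 and numbers 3 and 4, described below. Their places hold for the group mean and not for each number set. MSX2, PAX6, SOX18 and IRX3 lay between 0.273 and 0.467 CPM per kilobase, and ISL1, GATA4, PAX3, SIX2, NKX6-1 and OLIG2 between 0.0512 and 0.135. The order was not the same in ASO-L1: SOX21 (10.2 ± 1.06) was followed by TWIST1 (7.46 ± 0.513) and then ALX1, and SIX2 stood at 0.693 ± 0.337 against 0.0873 ± 0.0511 in ASO-Ctr.

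The comparison of ASO-L1 with ASO-Ctr asks how oligos against L1 RNA alter the members relative to control oligos. Of the 15 tested members, 6 were higher with ASO-L1, 1 was lower and 8 did not pass, at an adjusted p under 0.05 in edgeR's quasi-likelihood test with Benjamini-Hochberg adjustment. Over all 17484 genes tested, 11.5% were higher and 10.5% lower. The members that rose were SIX2, SOX18, TWIST1, OLIG2, ALX1 and MSX2, and the one that fell was SOX21. SIX2 and OLIG2 reached 10 counts in the ASO-L1 libraries only, so that they entered the test through the group in which they were high, and the count of 6 is given as a description. The median log2 fold change of the tested members was 0.33 against 0.00 for all genes. It includes SIX2 and OLIG2, so it is a description too.

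SIX2, a homeobox gene that keeps kidney progenitors undifferentiated, stood at 0.0984, 0.102, 0.238 and 0.330 CPM in ASO-Ctr libraries 1 to 4, at 0.198, 0.0436, 0.237 and 0.0847 in SO-L1 and at 0.708, 1.10, 2.05 and 2.26 in ASO-L1. Every ASO-L1 library lay above every other library, and the numbers 3 and 4 lay highest. The log2 fold change was 2.95 ± 0.48 (SE) against ASO-Ctr (adjusted p = 0.000754) and 3.35 ± 0.51 against SO-L1 (adjusted p = 0.000523), the largest among the tested members in both comparisons. Its counts were 2, 3, 6 and 8 in ASO-Ctr and 18, 35, 59 and 55 in ASO-L1. SOX18, a transcription factor of endothelial and lymphatic vessels, stood at 0.885, 0.819, 0.596 and 0.289 CPM in ASO-Ctr, 0.790, 1.39, 1.12 and 0.847 in SO-L1 and 3.85, 3.67, 2.05 and 2.83 in ASO-L1. The ASO-L1 range was clear of both others. SOX18 rose by 2.25 ± 0.30 against ASO-Ctr (adjusted p = 0.000167) and by 1.57 ± 0.28 against SO-L1 (adjusted p = 0.00174).

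TWIST1, a bHLH factor of mesenchyme and cranial crest, stood at 2.56, 2.70, 4.33 and 3.39 CPM in ASO-Ctr, 4.45, 4.92, 5.48 and 5.04 in SO-L1 and 11.8, 11.9, 13.7 and 12.2 in ASO-L1. The 3 groups did not overlap, with SO-L1 between ASO-Ctr and ASO-L1. TWIST1 rose by 1.93 ± 0.14 against ASO-Ctr (adjusted p = 1.60e-06) and by 1.32 ± 0.14 against SO-L1 (adjusted p = 2.99e-05). ALX1, a homeobox gene of craniofacial mesenchyme, stood at 1.92, 1.91, 2.54 and 2.48 CPM in ASO-Ctr, 2.12, 2.61, 2.67 and 2.33 in SO-L1 and 4.72, 4.23, 4.17 and 4.23 in ASO-L1. Here ASO-Ctr and SO-L1 overlapped and ASO-L1 lay above both. ALX1 rose by 0.97 ± 0.13 (adjusted p = 0.000164) and 0.83 ± 0.13 (adjusted p = 0.000606).

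OLIG2, a bHLH gene of motor neuron and oligodendrocyte precursors, stood at 0.197, 0.102, 0.0795 and 0.289 CPM in ASO-Ctr, 0.0988, 0.218, 0.271 and 0.296 in SO-L1 and 0.433, 0.314, 0.625 and 0.657 in ASO-L1. All ASO-L1 libraries exceeded all others, by small margins in number 2. The log2 fold change was 1.60 ± 0.42 against ASO-Ctr (adjusted p = 0.0145, and 0.0511 without ASO-Ctr 2). Against SO-L1 it was 1.13 ± 0.39, which did not pass (adjusted p = 0.0604), but did with the library number as a block (0.00915) and without ASO-L1 2 (0.0376). MSX2, a homeobox gene of skull and limb, stood at 1.28, 1.16, 0.755 and 0.991 CPM in ASO-Ctr, 1.63, 1.31, 0.981 and 1.40 in SO-L1 and 1.69, 1.25, 2.19 and 1.93 in ASO-L1. Its groups overlapped: ASO-L1 2 lay below ASO-Ctr 1. MSX2 rose by 0.75 ± 0.22 against ASO-Ctr (adjusted p = 0.0293). This call was lost without any 1 of ASO-Ctr 3, ASO-Ctr 4, ASO-L1 1, ASO-L1 3 or ASO-L1 4 (adjusted p from 0.0541 to 0.0908). Against SO-L1 it was 0.42 ± 0.22 (adjusted p = 0.215).

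SOX21, a SOX factor expressed in early embryo and neural progenitors, was the most abundant member and the one that fell. It stood at 39.1, 38.3, 48.5 and 45.7 CPM in ASO-Ctr, 39.8, 42.5, 46.3 and 42.4 in SO-L1 and 26.2, 25.8, 32.1 and 29.4 in ASO-L1. Every ASO-L1 library was lower than every other, while ASO-Ctr and SO-L1 overlapped. The log2 change was -0.60 ± 0.09 against ASO-Ctr (adjusted p = 0.000451) and -0.59 ± 0.09 against SO-L1 (adjusted p = 0.000567). SOX21-AS1, an antisense RNA next to the gene, went from 13.8 ± 1.58 to 8.99 ± 0.689 CPM with a log2 change of -0.62 ± 0.09 (adjusted p = 0.000255). The strand setting of the counting is not given in the sources used here, so reads of the pair may not be separable.

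**Figure D2:**
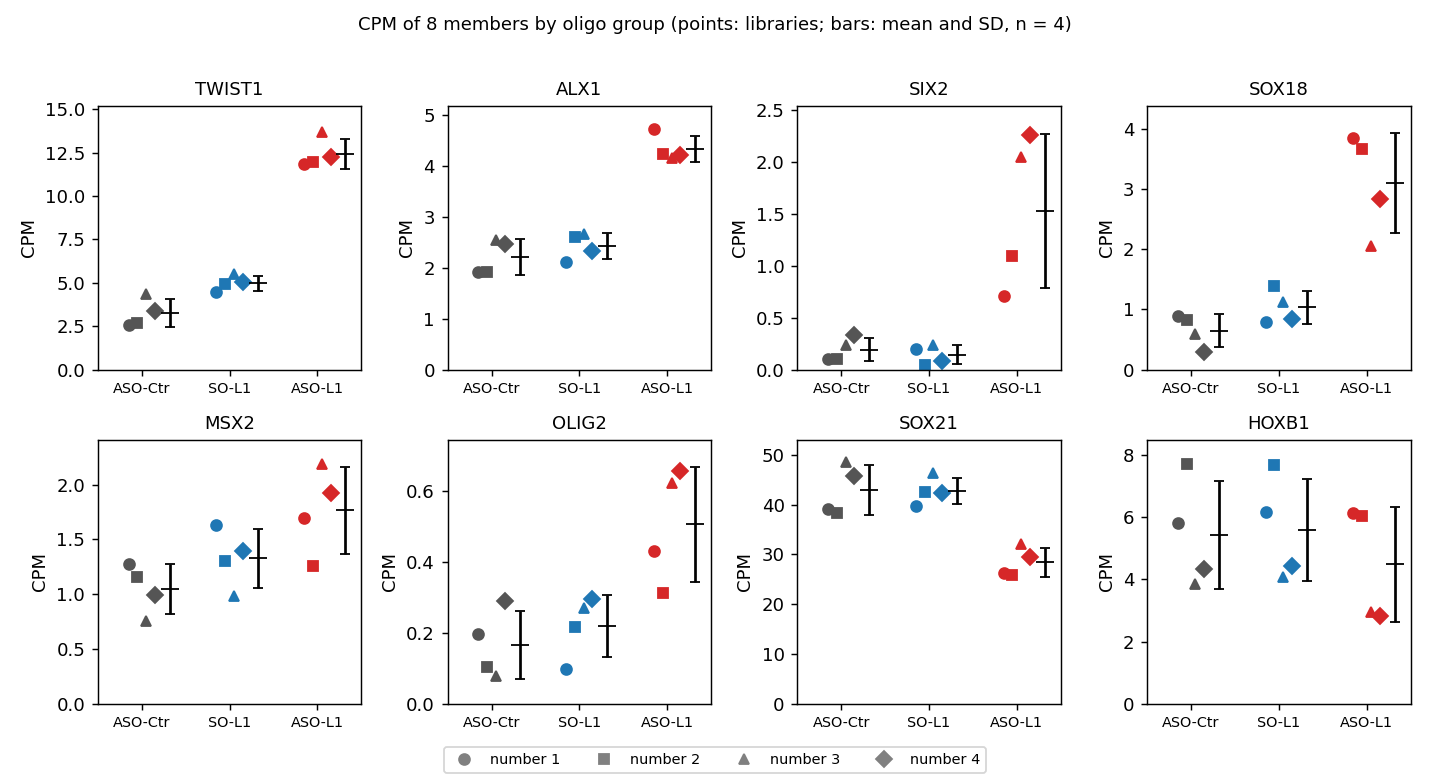
CPM of 8 members by oligo group; each point is a library (marker shape for its number), and the bars give the mean and SD of 4 libraries. TWIST1, ALX1, SIX2, SOX18 and OLIG2 in ASO-L1 lie above both other groups, SOX21 lies below both, and MSX2 and HOXB1 overlap.

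The remaining 8 tested members did not pass against ASO-Ctr. NKX6-1, a homeobox gene of pancreas and motor neurons, had a log2 fold change of 0.77 ± 0.43 (adjusted p = 0.233), and GATA4, a zinc finger gene of heart and endoderm, -0.33 ± 0.26. IRX3 (0.33 ± 0.25), PAX6 (0.31 ± 0.33) and ISL1 (0.24 ± 0.46) were on the positive side, and HOXB2 (-0.10 ± 0.52), HOXB1 (-0.27 ± 0.31) and PAX3 (-0.61 ± 0.32) on the negative side. Group ranges did not overlap for 6 members: the tested ones that passed other than MSX2. Over all genes, 25.2% had ranges that did not overlap. SIX2 and OLIG2, which entered the test through ASO-L1 only, are among the 6, so this count too is a description.

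Against SO-L1, the comparison with the same oligo sequence class in the other orientation, 4 members were higher (SIX2, SOX18, TWIST1 and ALX1), 1 was lower (SOX21) and 10 did not pass. Over all genes 10.5% were higher and 9.52% lower. Ranges were apart for 6 members, against 23.9% of all genes. SIX2, among both the 4 and the 6, and OLIG2, among the 6, entered the test through ASO-L1 only. Both counts are therefore given as a description. PAX3, a paired box gene of neural crest and muscle, stood at 0.593, 0.392, 0.305 and 0.550 CPM in SO-L1 and at 0.354, 0.219, 0.208 and 0.246 in ASO-L1. It was lower in all 4 same-number pairs, with a log2 change of -0.81 ± 0.31 (adjusted p = 0.0871, and 0.0490 without SO-L1 3). PAX3 reached 10 counts in 2 libraries of ASO-Ctr, 2 of SO-L1 and none of ASO-L1. It entered the test only through the groups in which it was high, so these values are a description. Both comparisons use the same ASO-L1 libraries, so their values are given side by side and are not independent of each other.

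SO-L1 against ASO-Ctr compares the sense oligos with the control oligos. None of the 15 members passed in edgeR, where 0% of all genes were higher and 0.0286% lower; 2 members had an unadjusted p under 0.05 in edgeR, TWIST1 and GATA4, and DESeq2 called 1, TWIST1. TWIST1 was higher in SO-L1 by 0.62 ± 0.15 on the log2 scale (adjusted p = 0.374). With the library number as a block this passed (0.62 ± 0.11, adjusted p = 0.000790), where 0.423% of all genes were higher, and in numbers 1 and 2 alone the adjusted p was 0.00265. GATA4 stood at 0.492, 0.478, 0.397 and 0.413 CPM in ASO-Ctr and 0.296, 0.305, 0.305 and 0.127 in SO-L1, ranges that did not overlap, with a log2 change of -0.77 ± 0.29 (adjusted p = 1.0). GATA4 reached 10 counts in all 4 ASO-Ctr libraries, in none of SO-L1 and in 1 of ASO-L1, so it entered the test mainly through the group in which it was high. Its separation from SO-L1 is therefore a description. Ranges were apart for 2 of the 15 members, TWIST1 and GATA4, and for 2.3% of all genes.

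**Figure D3:**
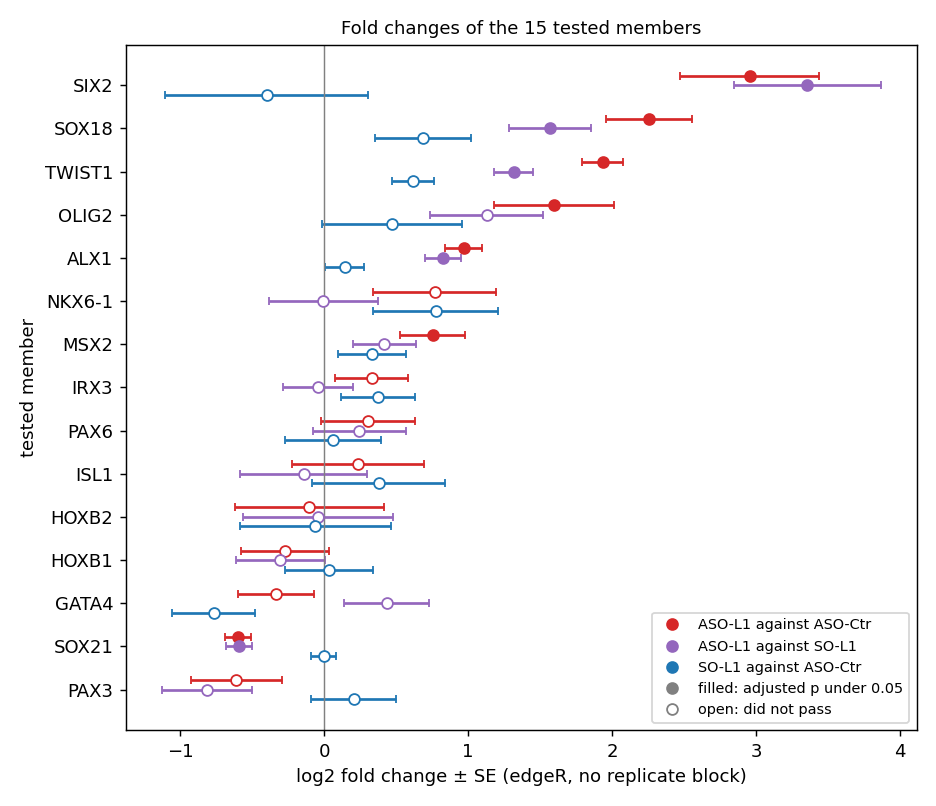
Log2 fold change and SE of the 15 tested members in the 3 comparisons, filled where the edgeR adjusted p is under 0.05. SIX2, SOX18, TWIST1 and ALX1 are filled to the right in both ASO-L1 comparisons, SOX21 is filled to the left, and no point of SO-L1 against ASO-Ctr is filled.

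Library number was the other axis along which members differed. In edgeR's F test over the 4 numbers, with group in the fit, 7 of 15 members passed: HOXB1, HOXB2, PAX6, TWIST1, SIX2, SOX18 and SOX21. Over all genes 45.1% did, so the members' count is near the background. Between numbers 3 and 4 and numbers 1 and 2, 7 members were higher and 3 lower, against 28.1% and 26.6% of all genes. For HOXB1, HOXB2 and PAX6 the 6 libraries of one set did not overlap with the 6 of the other, as for 18.2% of all genes.

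HOXB2, which patterns hindbrain segments, stood at 7.13, 6.21, 2.15 and 2.73 CPM in ASO-Ctr, 6.67, 6.45, 2.27 and 2.24 in SO-L1 and 6.57, 6.02, 2.19 and 2.05 in ASO-L1. All 6 libraries of numbers 1 and 2 lay above all 6 of numbers 3 and 4. The oligo groups overlapped within each number set, except that ASO-L1 lay just below SO-L1 in numbers 3 and 4. The log2 difference, numbers 3 and 4 minus 1 and 2, was -1.51 ± 0.09, from a mean of 6.51 to 2.27 CPM. HOXB1, which lies beside HOXB2 in its cluster and also acts in the hindbrain, stood at 5.80, 7.71, 3.85 and 4.34 CPM in ASO-Ctr, 6.17, 7.67, 4.09 and 4.45 in SO-L1 and 6.14, 6.05, 2.95 and 2.83 in ASO-L1. The same division by number was seen, with ASO-L1 the lowest of the 3 groups in numbers 2, 3 and 4. Its difference between number sets was -0.83 ± 0.09. HOXB3, their neighbour outside the set, went from 5.38 to 1.95 CPM (-1.45 ± 0.10).

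PAX6, a paired box gene of eye and forebrain, ran the other way, at 1.77, 2.39, 4.09 and 4.21 CPM in ASO-Ctr, 2.57, 2.40, 4.09 and 3.90 in SO-L1 and 2.67, 2.45, 4.76 and 5.66 in ASO-L1. Numbers 3 and 4 were higher in every group, by 0.90 ± 0.10. With the number as a block, the PAX6 difference between ASO-L1 and ASO-Ctr passed (0.30 ± 0.12, adjusted p = 0.0457), as did the lower level of HOXB1 (-0.29 ± 0.11, adjusted p = 0.0245). Blocked counts were thus 7 higher and 2 lower against ASO-Ctr, where 22.1% and 22.3% of all genes were called. HOXB1 was also lower than in SO-L1 in that fit (-0.33 ± 0.11, adjusted p = 0.0101). The authors' deposited log2 table, named as batch corrected, shows no such split: HOXB2 lies between 1.77 and 2.17 in all 12 libraries there.

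**Figure D4:**
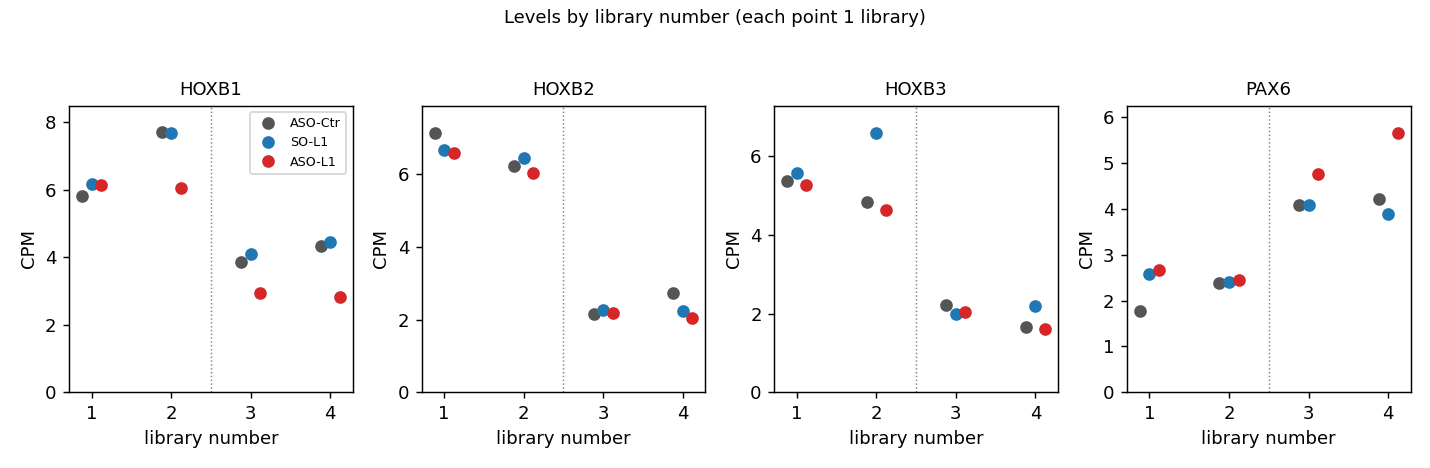
CPM of HOXB1, HOXB2, their neighbour HOXB3 and PAX6 by library number, 1 point per library, coloured by oligo group; a dotted line parts numbers 1 and 2 from 3 and 4. HOXB1, HOXB2 and HOXB3 are lower and PAX6 is higher in numbers 3 and 4 in all 3 groups.

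Within number sets, the fold changes of ASO-L1 against ASO-Ctr kept their sign for the members that passed. In numbers 1 and 2 and in numbers 3 and 4 respectively, they were 3.13 and 2.90 for SIX2, 2.14 and 2.42 for SOX18, 2.17 and 1.74 for TWIST1, 1.22 and 0.74 for ALX1, and -0.57 and -0.62 for SOX21. These 5 passed in both sets. They were chosen for passing in the fit of all 12 libraries, which holds both sets. SIX2, and OLIG2 below, entered the test through ASO-L1 only. The share of all genes that passed within the sets was not taken, so these values are a description. OLIG2 (1.35 and 1.78) and MSX2 (0.26 and 1.24) passed as higher in numbers 3 and 4 alone, HOXB1 (-0.18 and -0.50) passed as lower in numbers 3 and 4 alone, and NKX6-1 (1.82 and 0.24) passed as higher in numbers 1 and 2 alone. The difference between the sets was tested as an interaction: 0 of 15 members passed (0.772% of all genes did), with a lowest adjusted p of 0.324, for MSX2. At an unadjusted p under 0.05 there were 2, MSX2 and TWIST1; no other tool was run for this test.

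ISL1, a LIM homeobox gene of motor neurons and heart, lay between 0.125 and 0.537 CPM over all libraries. IRX3, a gene of neural and limb patterning, lay between 0.478 and 1.15 CPM, NKX6-1 between 0.0492 and 0.541, and PAX3 between 0.208 and 0.593. For ISL1, NKX6-1 and IRX3, ASO-L1 and SO-L1 overlapped and their log2 difference lay between -0.14 and -0.01.

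Genes of the Polycomb complexes were measured in the same libraries, here for ASO-L1 against ASO-Ctr. Over all 17484 genes tested, 11.5% were higher and 10.5% lower, and with the block 22.1% and 22.3%. The counts of the lists stand beside these shares as a description. Of 13 tested PRC2 genes, PHF1, an accessory subunit, rose by 0.34 ± 0.06 and JARID2, another accessory subunit, fell by 0.16 ± 0.04 on the log2 scale; the list median was -0.04 against 0.00 for all genes. EZH2 went from 101 ± 16.6 to 80.5 ± 14.1 CPM (-0.33 ± 0.15, adjusted p = 0.158, and 3.81e-10 with the block, under which 6 PRC2 genes were lower). EED (0.08 ± 0.06) and SUZ12 (0.01 ± 0.05) did not pass. Of 22 PRC1 genes, 4 rose, among them PCGF1 (0.90 ± 0.10), and 4 fell, among them CBX2 (-0.33 ± 0.04) and PHC3 (-0.32 ± 0.07); with the block 7 rose and 6 fell. Of 15 Trithorax genes, H3K27 demethylases and related genes, RBBP5 rose (0.20 ± 0.05; 5 rose and 3 fell with the block), while the demethylase gene KDM6B stood at 0.05 ± 0.27. AHCY, the gene of the enzyme that DZNep inhibits, had a log2 fold change of 0.09 ± 0.04, which passed with the block (adjusted p = 0.0162) and not without it (0.165).

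A wider list of other developmental regulators had 35 tested genes, of which 11 rose and 1 fell, with a median of 0.35 against 0.00 for all genes. Over all genes tested, 11.5% were higher and 10.5% lower, and with the block 22.1% and 22.3%. SNAI1, a repressor of epithelial genes, went from 3.42 ± 0.322 to 10.7 ± 2.60 CPM (1.64 ± 0.18), DMRT1 from 0.253 ± 0.203 to 2.79 ± 0.249 and DLX3 from 0.162 ± 0.0272 to 1.03 ± 0.318. GATA6, an endoderm regulator, went from 0.0903 ± 0.127 to 1.14 ± 0.367 CPM. It stood at 0.0849 ± 0.0770 CPM in SO-L1, so it entered the test through ASO-L1 only. DLX3 was also low in ASO-Ctr. The counts and the median of this list are therefore descriptions. OLIG3 was the one that fell (-0.86 ± 0.24), and with the block 14 rose and 5 fell.

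Some markers of other cell types differed between ASO-L1 and ASO-Ctr as well. Over all genes tested, 11.5% were higher and 10.5% lower, and with the block 22.1% and 22.3%. The list counts below, which include GATA6 and DLX3, are descriptions. Of 16 fibroblast markers, 10 were tested and 5 rose, VIM, SPARC, S100A4, TAGLN and COL1A1 (6 higher and 2 lower with the block). COL1A2 (-0.17, adjusted p = 5.26e-05) and POSTN (-0.39, adjusted p = 0.0325) were lower and THY1 higher in the blocked edgeR fit only. FBN1 and COL6A3 passed in neither fit. The list sum ranged from 625 to 734 CPM (ASO-Ctr), 634 to 756 (SO-L1) and 995 to 1083 (ASO-L1). The largest gains over ASO-Ctr among the 10 tested were those of VIM (mean 116 to 293 CPM), SPARC (235 to 364) and COL1A1 (66.3 to 115). FAP was at 0 in all libraries. Of 20 trophectoderm and amnion markers, 12 were tested and 6 rose, with KRT18, KRT8, DLX3 and GATA2 first (7 higher and 1 lower with the block); the sum was 728 to 843, 737 to 882 and 1102 to 1160 CPM. Of 20 mesoderm and endoderm markers, a list that holds the members LHX1 and GATA4, 9 were tested and 3 rose (CER1, GATA6 and MIXL1). Their sum was 25.6 to 38.2, 26.4 to 40.3 and 88.2 to 141 CPM, with TTR at 0. CER1 alone went from 13.8 ± 4.64 to 86.9 ± 26.3 CPM, of a mean sum of 31.7 in ASO-Ctr and 113 in ASO-L1. The other 6 tested markers, T, TBX6, GATA4, AFP, CXCR4 and TNNT2, did not pass.

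Of 14 endothelial markers in the table, 9 were tested and 3 rose, SOX18 itself, ESAM and TEK; the sum was 39.4 to 68.3 CPM in ASO-Ctr, 35.1 to 59.4 in SO-L1 and 50.5 to 73.1 in ASO-L1, ranges that overlapped. With the block 4 were higher and 1 was lower. FLI1, another endothelial marker, had -0.74 ± 0.26 (adjusted p = 0.0588) and was lower with the block (0.000524). TIE1 had 0.57 ± 0.50 (adjusted p = 0.468) and was higher with the block (0.000113). KDR, SOX7, VWF and CLDN5 had log2 fold changes between -0.05 and 0.11 and did not pass. Of 18 neural markers 15 were tested, NES rose and DCX fell (4 and 4 with the block), and the sum was 992 to 1041, 1079 to 1135 and 1122 to 1227 CPM. Of the 12 embryonic stem cell markers 5 fell, DNMT3B, SOX2, POU5F1, LIN28A and SALL4, by between 0.18 and 0.34 on the log2 scale; with the block 11 of the 12 were lower. The part of these other cell types in the rise of TWIST1, ALX1, SIX2, SOX18 and MSX2 was not tested.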

How the data were processed

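RNA of H9 cells was sequenced in 12 libraries, 4 per oligo group. The submitters' processing notes name Trim Galore 0.4.0, TopHat2 2.0.13, featureCounts (Subread 1.5.0) and hg19. The authors deposited raw counts per gene symbol. They also deposited log2 normalised values, named as batch corrected, and a result table with log2 fold changes and p-values.

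In R 4.3.3 with edgeR 4.0.16, genes with 10 counts in at least 4 libraries were kept (17484). TMM factors and a robust quasi-likelihood fit with a mean per group were used, with Benjamini-Hochberg adjustment over all genes. CPM uses effective library sizes, and SE is the log2 fold change divided by the square root of F. The code was tested on simulated data. A blank-named row with 10 counts was left out. DESeq2 1.42.0, other filters, a number block, each number set and leaving out each library were tried.

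The members, lists and tests were chosen with earlier results of these data known. Members past the threshold, with or without the block, are given per library; from each list the genes with the smallest p are named. A gene that this rule takes is not reported here. Same-number libraries correlated at r from 0.438 to 0.545 once group means were removed (log2 CPM, prior count 2), as did different numbers of one set (0.442 to 0.528); no label gives their origin. Total counts of 20367989 to 32180891 set the precision: 1 count is 0.0314 to 0.0494 CPM.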

Additional observations from a re-analysis of the deposited data

Results flagged for a closer look

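In each group of 4 libraries, the highest and lowest library were compared with the others for the 15 tested members (45 groups), and 3 groups had a library that stood apart; chance gives about 1 in 20. ISL1 was at 0.125 CPM in ASO-L1 2, against 0.472 to 0.521 in the other ASO-L1 libraries. GATA4 was at 0.127 CPM in SO-L1 4, against 0.296 to 0.305 in the other SO-L1 libraries. ALX1 was at 4.72 CPM in ASO-L1 1, against 4.17 to 4.23 in the other ASO-L1 libraries.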

How the results depend on the processing

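The 39 untested members had too few counts for a test at this depth. SIX2, SOX18, TWIST1, ALX1 and SOX21 kept their calls in both ASO-L1 comparisons under every alternative run. Of these, SIX2 passed the main filter through ASO-L1 only. DESeq2 and filterByExpr gave the same calls against ASO-Ctr, except that filterByExpr left OLIG2 untested (5 higher).

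With the replicate block, 2 members were lower in both ASO-L1 comparisons (HOXB1 joined SOX21), and 1 was higher in SO-L1 than in ASO-Ctr (TWIST1). Besides these, PAX6 and OLIG2, the block changed no other call of a tested member. Numbers 3 and 4 alone also gave 2 lower in both comparisons, and 7 higher against SO-L1. Among these 7 are SIX2 and OLIG2, which entered the test through ASO-L1 only. With no filter, 7 members were higher against SO-L1: the 4 reported and the otherwise untested LHX1, FOXC1 and DLX5. DESeq2 and numbers 1 and 2 alone each gave 1 higher in SO-L1 than in ASO-Ctr. Leaving out 1 library gave 5 to 6 members higher against ASO-Ctr, 4 to 5 against SO-L1, and 1 to 2 lower against SO-L1. The cause of these changes was not tested. Shares over all genes were not taken for DESeq2, a single number set or leaving out a library. The counts from those fits are descriptions.

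The sign changed in some alternative for 15 of the 45 log2 fold changes, none of which passed as reported or in that alternative (lowest adjusted p 0.215 and 0.730). In numbers 3 and 4 alone ISL1 had -0.000248 against ASO-Ctr and 0.17 against SO-L1, and for SO-L1 against ASO-Ctr PAX3 had -0.0410, PAX6 -0.0571, ISL1 -0.17 and ALX1 -0.00131. In numbers 1 and 2 alone NKX6-1 had 0.28 and MSX2 -0.00585 against SO-L1, and for SO-L1 against ASO-Ctr SIX2 had 0.19 and SOX21 0.0912. NKX6-1 against SO-L1 had 0.00350 in DESeq2 and 0.0332 with the block. Leaving out 1 library, HOXB2 ran from -0.395 to 0.177 against ASO-Ctr, -0.333 to 0.224 against SO-L1 and -0.327 to 0.219 for SO-L1 against ASO-Ctr. ISL1 ran from -0.0129 to 0.564 and -0.313 to 0.186 in the first 2 of these, and NKX6-1 from -0.154 to 0.212 and IRX3 from -0.141 to 0.106 against SO-L1. For SO-L1 against ASO-Ctr, HOXB1 ran from -0.160 to 0.262, PAX6 from -0.119 to 0.237 and SOX21 from -0.0560 to 0.0604.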
